A study of Zea mays with 4 samples.

Results

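Cytosolic ribosomal proteins are the protein part of the ribosomes that translate nuclear messages in the cytoplasm. The genes described here are the nuclear protein-coding genes whose NCBI maize symbol or synonym consists of rpl or rps and a number, together with RP-P0, the gene of the protein at the base of the ribosomal stalk. By name 30 genes were found among the 34018 protein-coding genes listed. Of these, 1 was left out because its other name is that of a gene for a plastid ribosomal protein. RP-P0 (GeneID 542454) was added, which gave 30 genes again, of which 14 carry names of the large subunit and 15 of the small subunit. The remaining gene, LOC101027200, carries names of both (RPL27A and RPS27A) and a ubiquitin fusion name (UBF9). Selection by name leaves out every copy known only by a locus number, so the 30 genes are not a complete set, and the names alone do not show that each product enters the cytosolic ribosome.

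All libraries were made from total RNA, depleted of ribosomal RNA, of the last 1 mm at the tip of roots, primary and seminal ones together, of B73, the maize inbred line of the reference genome. Seedlings had no treatment and were 3 days old, kept at 28 C in constant dim light of about 500 lux. The 4 biological replicates form a single group with no second condition and no separate value for primary or seminal roots. How many seedlings each replicate holds is not given, so an SD or p-value here covers the spread between these 4 samples and nothing wider.

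In each ribosome the small subunit binds the message and decodes it, and the large subunit joins the amino acids. The acidic proteins P1 and P2, with P3 in plants, dock on P0 and form the stalk that recruits translation factors. Ribosomal protein messages are a large part of the messages of dividing cells, and plant genomes keep several copies of most of these genes.

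Library totals ran from 9168397 to 14728175 counts. Markers of the root cap, root hairs, the stem cell region with endodermis, and cycling cells were present. The root cap genes RCP1 and RCP2 together stood between 316 and 423 CPM (counts per 1e6 of the library total). The root hair gene rth3 stood between 61.9 and 69.4 CPM, and wox5B and SCR together between 16.9 and 24.1 CPM. For pcna2 with MCM6, genes of DNA replication, the range was 259 to 279 CPM. Markers of leaf, seed and differentiated endodermis were at or near 0. The leaf gene ssu1, the zein gene zp1 and ZmCASP1 of differentiated endodermis had 0 counts in all 4 libraries, and cab1, ole1 and ZmCASP2 had 33, 87 and 7 counts in total.

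All 30 ribosomal protein genes passed the filter on low counts and were read in every library. Their joint share of all counts was 1.95, 2.22, 2.03 and 2.11% in replicates 1 to 4, on average 2.08 ± 0.116% (SD, n = 4). The 95% Wilson intervals, which cover counting error only, reached at most 0.00954 percentage points to either side of a share. The spread between libraries was therefore wider than counting error, with replicate 2 the highest and replicate 1 the lowest. The 4 genes with the most reads, RP-P0, RPL10 (LOC542298), rps4 (LOC103644306) and rps6-2, took 49.4 ± 2.02% of the reads of all 30. The gene means ran from 3.59 to 3977 CPM with a median of 322 CPM. Long messages give more reads per molecule, and no lengths were used here, so every level and every difference between genes is in reads. In whole tips, fewer cells that use a gene and less of its RNA per cell cannot be told apart.

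**Figure D1:**
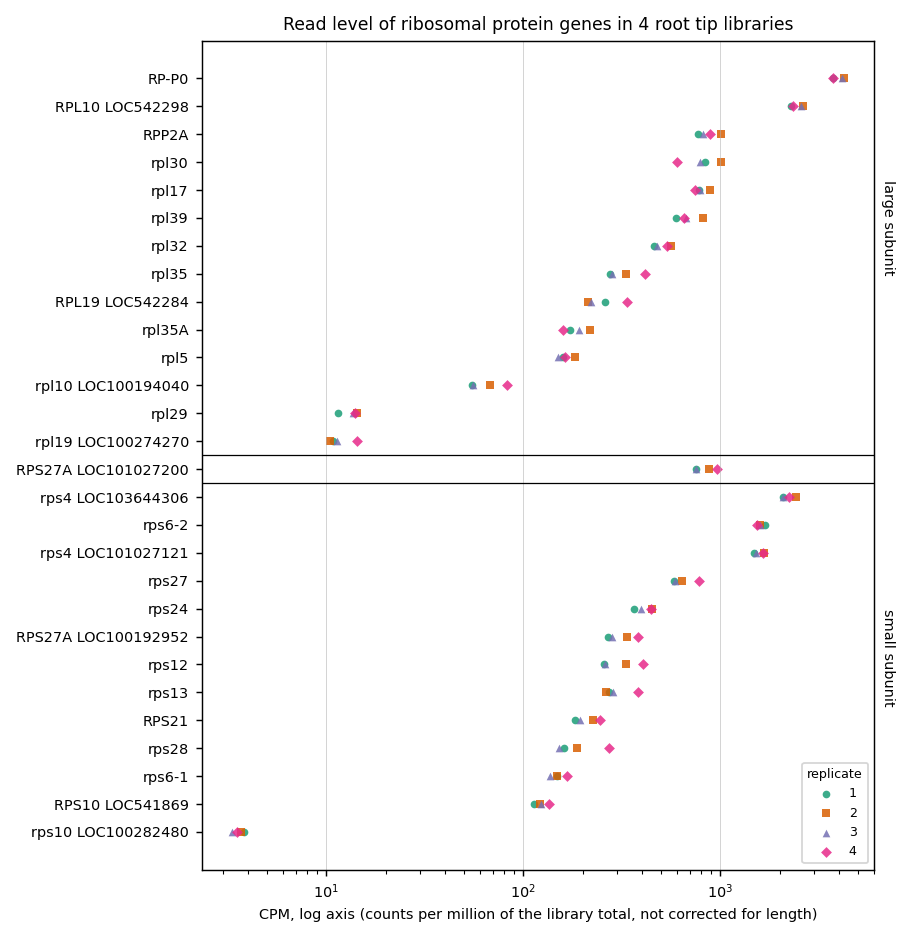
Read level in CPM (log axis, not corrected for length) of the ribosomal protein genes reported by name, one symbol per replicate, ordered by mean within the large subunit (top), the gene named for both subunits, and the small subunit (bottom). Most genes lie above 100 CPM, and the 4 libraries of a gene lie close together beside the distance between genes.

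The reference for each gene was the protein-coding gene of median level in the same library, taken over those expressed, which stood at 14.7, 13.9, 14.5 and 15.5 CPM in replicates 1 to 4. Of the 30 ribosomal protein genes, 27 lay more than 2-fold above it, 1 lay more than 2-fold below it and 2 did neither. Calls were made at a Benjamini-Hochberg adjusted p of 0.05 by a quasi-likelihood F test. The F statistic was computed from edgeR's fit at the nearer 2-fold bound, and the test is given below as by edgeR. Among all 21039 genes tested 25.6% lay above and 26.9% below, and among the 19603 protein-coding genes 26.6% and 25.1%. The median log2 ratio of the 30 genes was 4.46 ± 0.24 (SD, n = 4), a 21.9-fold excess of reads, where the median over all genes tested was -0.08 ± 0.0098. By subunit, 12 of 14 large subunit genes and 14 of 15 small subunit genes lay above, as did LOC101027200.

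**Figure D2:**
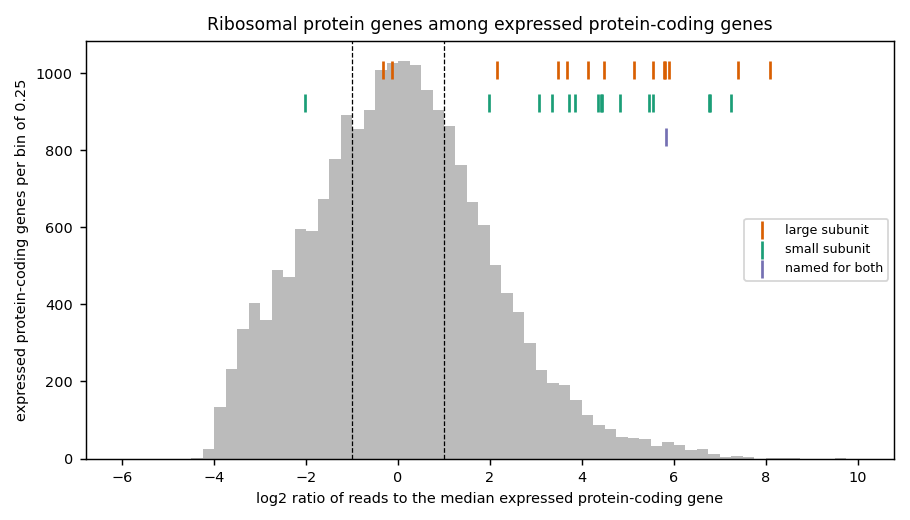
Histogram of the log2 ratio of reads to the median gene for 19603 expressed protein-coding genes (grey), with the ribosomal protein genes as ticks (large subunit orange, small subunit green, named for both purple) and dashed lines at a 2-fold difference. Most ticks lie to the right of the main body of genes, 2 lie between the dashed lines and 1 lies to their left.

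Among the large subunit genes, RP-P0 had the most reads, at 3747, 4238, 4173 and 3749 CPM in replicates 1 to 4. Replicates 2 and 3 were thus the higher pair, and the mean was 3977 ± 266 CPM (log2 ratio 8.09, adjusted p = 1.88e-22 by edgeR). RPL10 (LOC542298) encodes a protein that in yeast joins the large subunit late in its assembly, and it showed the same order, at 2298, 2626, 2568 and 2337 CPM. Its mean was 2458 ± 164 CPM (log2 ratio 7.40). RPP2A, found by its synonym rpl12, encodes a P2 protein of the stalk and stood at 771, 1011, 815 and 889 CPM, with replicate 2 the highest. The genes rpl30, rpl17 and rpl39 had similar means of 809 ± 168, 800 ± 63.0 and 684 ± 92.6 CPM, and proteins L17 and L39 line the tunnel through which the new chain leaves the ribosome.

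rpl30 had one of the wider spreads between libraries among the 30 genes, at 836, 1009, 788 and 602 CPM. Its level in replicate 2 was 1.68 times that in replicate 4. rpl35, whose protein lies at the mouth of the exit tunnel, went the other way, at 276, 332, 282 and 413 CPM, with replicate 4 the highest. rpl32 stood at 510 ± 48.4 CPM, rpl35A at 186 ± 25.5 CPM and rpl5, whose protein binds the 5S ribosomal RNA, at 164 ± 13.7 CPM. The protein L35A is a different one from L35 in spite of the shared number.

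The only large subunit genes that did not pass the test were rpl29 and the lower rpl19 gene. rpl29 stood at 11.5, 14.4, 13.7 and 13.9 CPM, a log2 ratio of -0.13 (adjusted p = 1 by edgeR), with replicate 1 the lowest. rpl19 (LOC100274270) stood at 10.9, 10.5, 11.3 and 14.4 CPM, a log2 ratio of -0.32 (adjusted p = 1), with replicate 4 the highest. Both were therefore read at about the level of the median gene. Both ratios turn positive when every protein-coding gene with a count is kept, which lowers the median gene (0.71 for rpl29 and 0.53 for rpl19).

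Among the small subunit genes, both rps4 genes and rps6-2 had the most reads, from 1490 to 2433 CPM in every library. rps4 (LOC103644306) stood at 2088, 2433, 2087 and 2232 CPM and rps4 (LOC101027121) at 1490, 1674, 1520 and 1652 CPM. The 2 libraries with more rps4 reads, replicates 2 and 4, were thus the same for both genes. rps6-2 encodes the protein S6, the ribosomal protein that S6 kinase phosphorylates downstream of the TOR kinase. Its levels were 1695, 1597, 1591 and 1535 CPM, and its SD of 0.06 log2 units was the smallest of the 30 genes.

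The genes rps27 and rps24 had means of 649 ± 91.5 and 414 ± 40.9 CPM. The fusion genes of the RPS27A family encode ubiquitin joined to a small subunit protein, and the parts are separated after translation. rps12, rps13, RPS21, rps28, rps6-1 and RPS10 (LOC541869) had means between 123 ± 8.95 CPM for RPS10 and 314 ± 69.0 CPM for rps12.

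rps28 had the widest spread between libraries, at 162, 187, 151 and 273 CPM. Its 3722 counts in replicate 4 stood beside 2383, 1714 and 2086 counts in replicates 1 to 3. The highest library thus exceeded the lowest 1.81-fold, where the median over the 30 genes was 1.27-fold and the smallest ratio 1.10-fold.

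One gene lay below the median gene. rps10 (LOC100282480) stood at 3.80, 3.71, 3.33 and 3.52 CPM, from 56, 34, 46 and 48 counts, a log2 ratio of -2.03 ± 0.12 (SD, n = 4; adjusted p = 3.26e-06 by edgeR). Its SD of 0.08 log2 units was below its counting error of 0.22, whereas the SD of the other 29 genes exceeded theirs. The call was lost when every protein-coding gene with a count was kept (adjusted p = 0.285 by edgeR).

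A shared protein name grouped 12 of the genes into 6 pairs, and in each pair the same copy had more reads in all 4 libraries. The pairs rest on names alone and no sequences were compared, so copy here means a gene that shares the name. The size of the imbalance differed widely between pairs. RPL10 (LOC542298) exceeded rpl10 (LOC100194040) 41.9-, 38.5-, 46.0- and 28.4-fold in replicates 1 to 4, with the lower copy at 54.8, 68.2, 55.9 and 82.4 CPM. RPS10 (LOC541869) exceeded rps10 (LOC100282480) 29.7-, 32.7-, 37.1- and 38.2-fold. RPL19 (LOC542284), whose protein takes part in a bridge between the subunits, exceeded rpl19 (LOC100274270) 24.0-, 20.4-, 19.6- and 23.4-fold. It stood at 260, 214, 222 and 337 CPM, and both rpl19 genes had their highest level in replicate 4.

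The other 3 pairs were less uneven. rps6-2 exceeded rps6-1 11.5-, 10.8-, 11.6- and 9.23-fold, with rps6-1 at 148, 148, 137 and 166 CPM. RPS27A (LOC101027200) exceeded RPS27A (LOC100192952) 2.78-, 2.61-, 2.67- and 2.53-fold, the higher copy standing at 753, 876, 751 and 964 CPM and the lower at 271, 336, 282 and 381 CPM. Both fusion genes were thus higher in replicates 2 and 4 than in 1 and 3. The rps4 pair was the most even, at 1.40-, 1.45-, 1.37- and 1.35-fold.

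The log2 ratios of the pairs were 5.25 ± 0.30 for rpl10, 5.10 ± 0.17 for rps10, 4.45 ± 0.14 for rpl19, 3.42 ± 0.15 for rps6, 1.40 ± 0.06 for RPS27A and 0.48 ± 0.05 for rps4 (SD, n = 4). Each was larger than its spread over the libraries, yet the exact two-sided sign-flip permutation test gave p = 0.125 for every pair (adjusted over 6 pairs also 0.125), the smallest value that 4 libraries allow. The sources used here do not say how reads that match both copies were counted, and 7 of the 30 genes have a fractional value in at least 1 library. Copies of near-identical sequence are therefore uncertain as single genes.

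**Figure D3:**
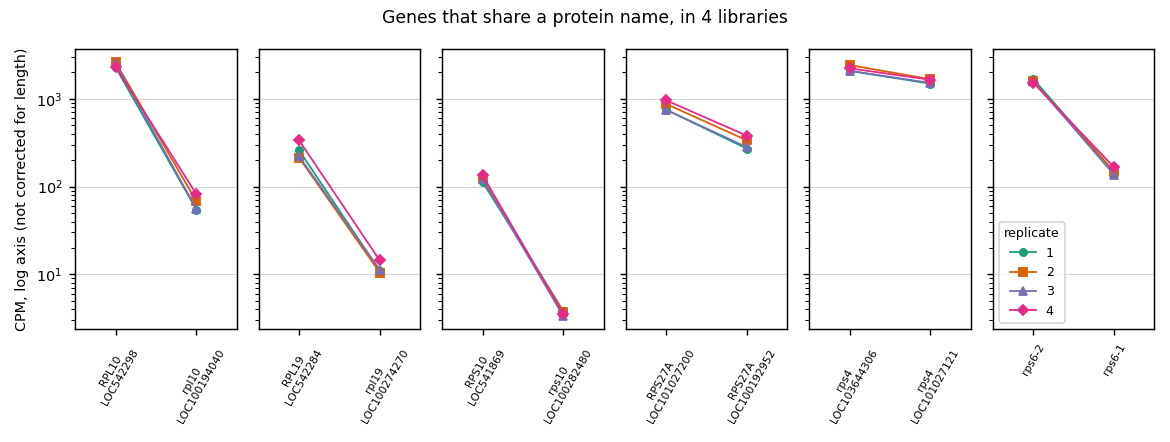
Read level in CPM (log axis, not corrected for length) of the 6 pairs of genes that share a protein name, one line per replicate joining the higher copy (left) to the lower copy (right). All lines fall from left to right, steeply for rpl10, rpl19, rps10 and rps6 and by little for rps4.

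Beside RP-P0 and RPP2A, 6 further genes carry names of acidic stalk proteins but no rpl or rps name. Of the 7 genes named P1, P2 or P3, RPP2A included, 6 lay above the median gene by edgeR (25.6% of all genes tested) and 1 did not pass, and all 7 ratios were positive. Their median ratio was 5.89 ± 0.21 on the log2 scale. rpp1a, the P1 gene, stood at 1448, 2139, 1631 and 1502 CPM, and rpp3, the gene of the plant-specific P3, at 1323, 1686, 1390 and 1379 CPM. In both, replicate 2 was the highest and the other 3 libraries lay close together.

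The P2 proteins are named in 5 genes with very different read levels. rpp2a-4 stood at 1475, 2006, 1526 and 1158 CPM, rpp2a-2 at 324, 406, 340 and 361 CPM and rpp2a-3 at 243, 321, 238 and 245 CPM. These too were highest in replicate 2. rpp2b was the exception, at 28.1, 26.6, 24.9 and 24.5 CPM, and did not pass the test (log2 ratio 0.83, adjusted p = 1 by edgeR). It passed when every protein-coding gene with a count was kept (log2 ratio 1.68, adjusted p = 1.24e-09 by edgeR). It also passed when no 2-fold threshold was set (adjusted p = 4.58e-08 by edgeR). In both cases 7 of 7 then lay above. The 7 genes and RP-P0 together stood at 9359, 11833, 10139 and 9307 CPM.

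**Figure D4:**
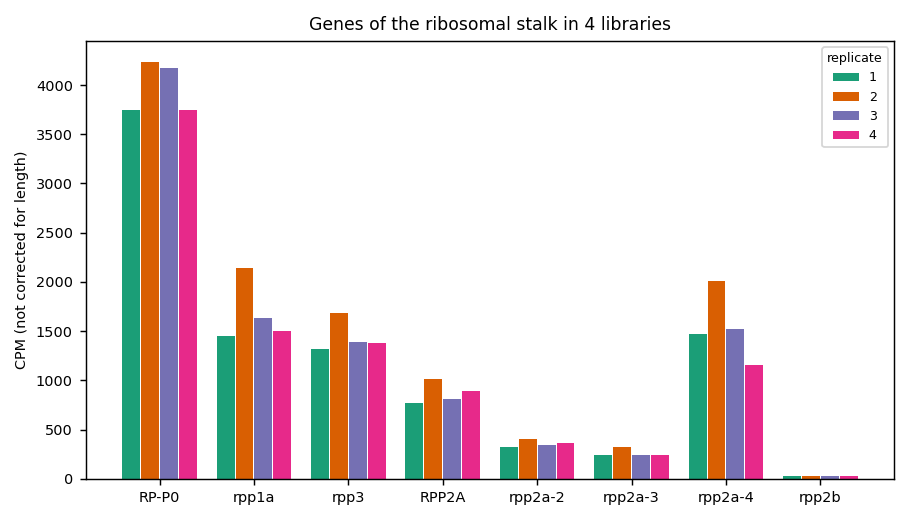
Read level in CPM (not corrected for length) of RP-P0 and of the 7 genes named P1, P2 or P3, one bar per replicate. Replicate 2 has the tallest bar for every gene but rpp2b, which is close to 0 on this scale at 24.5 to 28.1 CPM.

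The libraries in which the genes were high or low were largely shared. Each gene was set against its own mean log2 CPM over the 4 libraries, which needs no correction for length. In replicates 2 and 4 alike 21 of the 30 genes stood above their own mean, against 5 in replicate 1 and 5 in replicate 3. Among all expressed protein-coding genes 51.0%, 36.9%, 47.4% and 64.3% did so in replicates 1 to 4. The median departure of the 30 genes was -0.11, 0.09, -0.08 and 0.12 log2 units in that order, and that of all expressed protein-coding genes 0.00, -0.07, -0.01 and 0.07.

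In replicate 2, scaled by library totals, most of the ribosomal protein genes were above their mean, while most expressed protein-coding genes were below theirs. It was the highest library for 13 of the 30 genes, against 21.0% of all expressed protein-coding genes, and the lowest for 4, against 41.7%. Replicate 4 was the highest for 15 (38.3% of all) and the lowest for 4 (17.5%). Replicate 1 was the highest for 2 (23.3%) and the lowest for 16 (21.3%), and replicate 3 the highest for 0 (17.3%) and the lowest for 6 (19.5%). TMM scaling applies 1 factor to each library and so raises replicate 2 for every gene alike. With it, replicate 2 was the highest for 16 of the 30 genes and the lowest for 0, against 29.1% and 31.8% of all expressed protein-coding genes. In replicate 2, 26 of the 30 genes were then above their mean, against 47.6% of all expressed protein-coding genes. With the median gene of each library as the unit, the values were 26 of 30 and 51.0%.

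Well-read genes gave a similar picture. The level of 100 CPM was reached by 25 of the 30 genes and by 1673 protein-coding genes in all. Replicate 2 was the highest library for 12 of the 25, against 28.0% of the 1673, and the lowest for 2, against 38.6%. Replicate 4 was the highest for 12 (34.2%) and the lowest for 4 (21.2%). Replicate 1 was the highest for 1 (22.5%) and the lowest for 14 (26.1%), and replicate 3 the highest for 0 (15.2%) and the lowest for 5 (14.2%).

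The subunits differed in which of these libraries was the higher. Replicate 2 was the highest for 10 of 14 large subunit genes, against 21.0% of all expressed protein-coding genes. RP-P0, RPL10 (LOC542298), RPP2A, rpl30, rpl17 and rpl39 were among them. Replicate 4 was the highest for 10 of 15 small subunit genes, rps28, rps13, rps12 and rps27 among them, against 38.3% of all. It was also the highest for 4 large subunit genes (both rpl19 genes, rpl10 LOC100194040 and rpl35). The median log2 ratio of replicate 4 to replicate 2 was -0.17 over the large subunit genes, from -0.75 for rpl30 to 0.66 for RPL19 (LOC542284), and 0.15 over the small subunit genes, from -0.12 for rps4 (LOC103644306) to 0.55 for rps28. Over all expressed protein-coding genes it was 0.14, close to the small subunit value.

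This split was seen after the values were known, a single library stands on each side, and the difference was not tested. Part of it depends on the scaling. With TMM scaling, or with the median gene of each library as the unit, replicate 2 remained the highest library of 10 large subunit genes. For the small subunit replicate 4 was then the highest for 8 and 7 genes and replicate 2 for 6 and 8. Among all expressed protein-coding genes replicate 4 was the highest for 27.6% and 24.2%, and replicate 2 for 29.1% and 31.8%. These scalings moved the median of all expressed protein-coding genes in replicate 4 relative to replicate 2 from 0.14 to 0.02 and -0.02. Replicate 2 had the lowest total count, and replicate 4 had the highest share of protein-coding counts (95.2%, against 92.3 to 93.1% in the others) and the highest root cap sum (423 CPM, against 316 to 362 CPM). The part of these differences in the pattern was not tested.

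**Figure D5:**
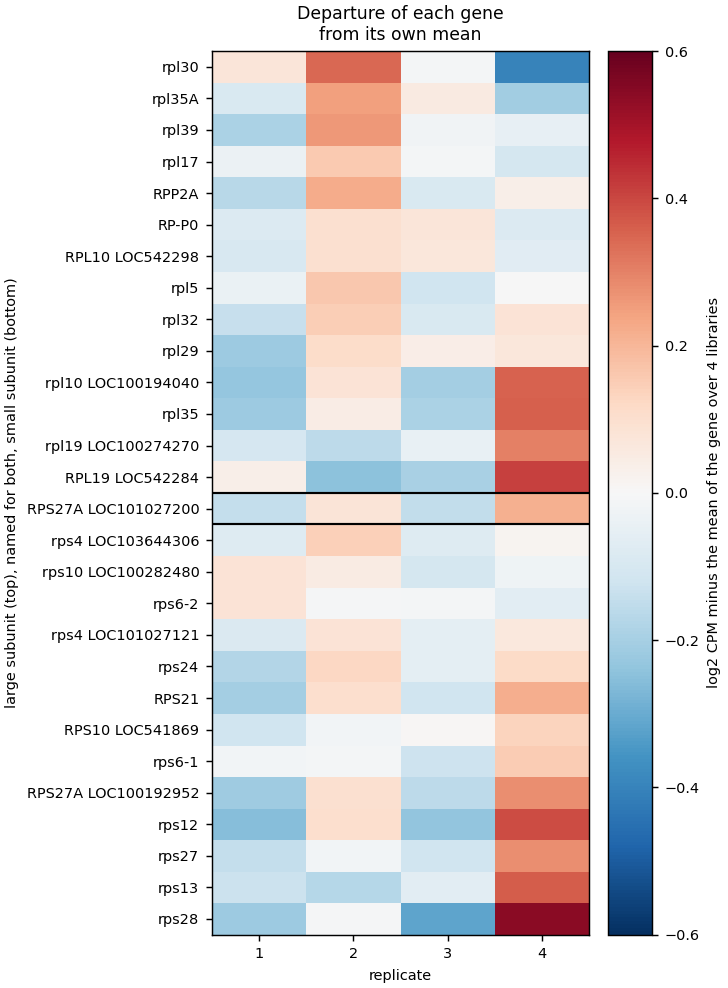
Departure of log2 CPM from the gene's own mean over the 4 libraries (red above, blue below) for the ribosomal protein genes reported by name, with large subunit genes at the top, LOC101027200 between the lines and small subunit genes at the bottom, each block ordered by the ratio of replicate 4 to replicate 2. Replicate 2 is red for most large subunit genes and replicate 4 for most small subunit genes, while replicates 1 and 3 are mostly blue.

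The spread itself was like that of other genes. The median SD of log2 CPM over the 4 libraries was 0.159 for the 30 genes and 0.191 for all expressed protein-coding genes. At 100 CPM or more it was 0.170 for 25 ribosomal protein genes and 0.151 for 1673 protein-coding genes. The highest library exceeded the lowest more than 1.5-fold for 5 of the 30 genes, against 28.6% of all expressed protein-coding genes. At 100 CPM or more it did so for 4 of 25, against 13.4%.

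Other genes of translation were matched by name to place these values. All 11 genes of the translation factor list lay above the median gene by edgeR, against 25.6% of all genes tested. Their median ratio was 5.19 ± 0.21 on the log2 scale. TCTP is in this list by its own name and not by the name of a factor. EF1A, the elongation factor that brings aminoacyl-tRNA to the ribosome, stood at 1278, 1050, 1248 and 1574 CPM, and TCTP at 953, 1231, 1045 and 1015 CPM. The lowest was eIFiso-4E, a cap-binding factor, at 79.2, 84.7, 88.9 and 99.8 CPM. Replicate 2 was the highest library for 2 of the 11 factor genes, TCTP and eIF4E1, against 21.0% of all expressed protein-coding genes. It was the lowest for 4, EF1A among them, against 41.7%. With TMM scaling it was the lowest for 2, against 31.8%.

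In reads, the median of the ribosomal protein genes was lower than that of the factor genes by 0.74 ± 0.07 log2 units (difference -0.74, negative in 4 of 4 libraries), and the large subunit median exceeded the small subunit median by 0.37 ± 0.04 in 4 of 4 libraries. Neither difference is corrected for length. With list means in place of medians they became -0.47 ± 0.11 and 0.11 ± 0.098.

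The TOR pathway controls ribosome production in growing cells. A list of names drawn up for it matched 3 genes. By edgeR 1 of them lay above the median gene and 2 below (25.6% and 26.9% of all genes tested). TOR, the kinase itself, stood at 95.2, 68.6, 72.1 and 62.8 CPM (log2 ratio 2.35, adjusted p = 1.3e-09). S6K, named for the kinase that phosphorylates S6, stood at 3.53, 3.38, 3.55 and 3.23 CPM (log2 ratio -2.10, adjusted p = 1.81e-06). maf1, in yeast the name of a repressor of RNA polymerase III, stood at 3.60, 4.36, 2.75 and 2.64 CPM (log2 ratio -2.15, adjusted p = 8.87e-06 by edgeR). It was matched by name alone, which does not show that this maize gene acts in the TOR pathway. The S6 messages and the S6K message thus lay on opposite sides of the median gene. Both calls below were lost when every protein-coding gene with a count was kept (adjusted p = 0.128 and 0.0816 by edgeR).

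The single gene named for an organelle ribosomal protein, prpl35-1, lay below the median gene at 1.56, 1.09, 1.52 and 2.72 CPM (log2 ratio -3.07, adjusted p = 5.84e-08 by edgeR). Root tip plastids are not green, and ssu1, a nuclear gene of the photosynthetic enzyme Rubisco, was at 0 in the same libraries.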

How the data were processed

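The deposited values are estimated counts per NCBI GeneID, with no normalization by the authors. They came from strand-specific, rRNA-depleted libraries with UMI adaptors, per the labels' protocols. Per the submitters' processing notes, the tools were HTSeq, UMI-tools, STAR 2.7.10b, deepTools, SAMtools and Trimmomatic (0.36 and 0.39). Roles, genome build, strand setting and UMI collapsing: not given in the sources used here. A fractional value occurred in 3062 of 48174 genes (tolerance 1e-06). Values were rounded to whole numbers before tests. Another table with 5 value columns that match no sample was not used.

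Names came from RefSeq for Zm-B73-REFERENCE-NAM-5.0 (48127 GeneIDs matched, 47 did not), used for names and gene order only. No 2 of the 30 genes lay within 5 genes of each other. Genes passing edgeR's filterByExpr (minimum count 10, total 15) were fitted in edgeR 4.0.16 with an intercept and, as offset, the level of the median protein-coding gene among those expressed, and tested against a 2-fold difference by the quasi-likelihood F statistic at the nearer 2-fold bound, with Benjamini-Hochberg adjustment over 21039 genes. The procedure was tested on simulated data. A correction for coding length had been planned and lacked lengths, and promoter and protein sequences were not used here. Alternatives were no filter, 1 CPM, TMM, DESeq2 1.42.0, limma 3.58.1, no threshold, whole values only and leaving out each replicate. The fit without the filter kept protein-coding genes only.

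Named genes were the 10 highest and 5 lowest by mean CPM, all not called above, all pairs and RP-P0, with the remaining genes by mean; of the other lists, the 2 highest and the lowest, and all members of the stalk and TOR lists. The genes split by library and rps28, rpl30 and rpl35 were named after their values were seen. Values of some single genes are not reported here, though counts and medians include them. Members and lists were chosen with earlier results of these data known. The pattern for translation factors also matched 21 TIFY genes, which are transcriptional regulators and were removed. Patterns for ribosome biogenesis matched 0 genes, and the ubiquitin pattern matched 2, both RPS27A genes. rpl35 and rpl35A were not paired although they share a number.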

Additional observations from a re-analysis of the deposited data

Results flagged for a closer look

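Among 60 sets of 4 library values screened for a sample that stands apart, 3 had a gap between the extreme library and its nearest neighbour that was, as a part of the whole range, above Dixon's 95% critical value. Chance flags about 1 in 20 such sets. rpp2a-3, a P2 gene of the stalk, was flagged for replicate 2, at 321 CPM against 238 to 245 CPM in the other libraries (gap 0.922 of the range). csu474(rpS14), a gene whose synonym holds a ribosomal protein name in brackets, was flagged for replicate 4, at 68.1 CPM against 36.9 to 39.4 CPM (0.919). csu505(rpL7), a gene of the same kind, was flagged for replicate 4 as well, at 333 CPM against 267 to 277 CPM (0.842). None of the 30 ribosomal protein genes was flagged.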

How the results depend on the processing

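Of the 30 ribosomal protein genes, 27 lay above the median gene under every alternative in which all could be fitted, leaving out each replicate included, and 20 with whole values only. Over single genes, 541 of 549 alternative values kept their direction and call, and 319 of 323 for the 30 genes. Keeping every protein-coding gene with a count, and no other genes, lowers the median gene. Then 8369 protein-coding genes lay above and 9172 below. By edgeR 0 ribosomal protein genes and 0 genes of the TOR list lay below (0 of either at an unadjusted p of 0.05). The medians became 5.30 for the 30 genes, 6.74 for the stalk, 6.04 for translation factors, -1.15 for the TOR list and -2.32 for prpl35-1. The ratios of rpl19 (LOC100274270) and rpl29 turned to 0.53 and 0.71. Without the 2-fold threshold 9312 genes lay above, 9913 below and 2 ribosomal protein genes below, rpl19 (LOC100274270) being the added one. With whole values only, fewer genes of the lists remain: the stalk median was 5.43 with 3 genes above and the factor median 4.35. The share of protein-coding counts was 2.23%. List means gave 0.11 for large minus small subunit and -0.47 for ribosomal protein genes minus factors, and keeping the TIFY genes in the factor list, chosen after seeing the data, turned the latter to 2.27. Small subunit genes highest in replicate 2 numbered 3, or 6 with TMM and 8 with the median gene. The shares of all expressed protein-coding genes were 21.0%, 29.1% and 31.8%. These 2 scalings were read on this pattern after seeing the data. Leaving out replicates moved the median of the 30 genes between 4.38 and 4.54 and their share between 2.03 and 2.12%. Correction for coding length and the sequence alternatives were not run. No paired analysis was possible because there is 1 group only. Depth limits the genes read at a few CPM, rps10 (LOC100282480), S6K, maf1 and prpl35-1, since few counts lie behind each.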

Other observations

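Besides the 30 genes, 4 genes carry a ribosomal protein name only in brackets after a marker name. csu505(rpL7) stood at 287 ± 30.6 CPM (SD, n = 4), csu733(rpL39) at 65.1 ± 12.5 CPM, csu474(rpS14) at 45.8 ± 14.9 CPM and csu525(rpL17) at 21.2 ± 1.68 CPM. The first 3 lay above the median gene by edgeR, as 25.6% of all genes did. They were highest in replicate 4, as 38.3% of all expressed protein-coding genes were. csu525(rpL17) did not pass (log2 ratio 0.54, adjusted p = 1) and was highest in replicate 1.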
